A study of Oryctolagus cuniculus with 6 samples.

Results

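The genes described here serve the processing of antigens and their presentation on MHC molecules. They were measured in the retina of rabbits with proliferative vitreoretinopathy (PVR), a scarring disease of the retina, and in normal rabbit retina. They are 10 genes chosen by symbol: B2M, TAP1, TAP2, TAPBP, PSMB8, PSMB9, PSMB10, NLRC5, CIITA and CD74. All 10 were found among the 28788 genes of the files, and all 10 were among the 18697 genes that passed the filter on low counts. The rule that picks them uses gene symbols and no measured value, but the genes were chosen with earlier results of these data known.

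The series holds 6 retinal RNA samples, 3 labelled normal and 3 labelled PVR. In the model, adult rabbits had the sclera punctured, vitreous was drawn off, and platelet-rich plasma was injected into the vitreous cavity. The sources used here give neither the time from injection to collection, nor the strain, nor any sham treatment of the normal eyes, nor whether each sample was a separate animal, so p-values measure the spread between these samples only. Counted reads ran from 31904593 to 43035080 per sample. GLUL, RLBP1, SLC1A3, GFAP and VIM, markers of Müller glia of the retina, had summed levels from 2177 to 2981 CPM (counts scaled to a common library size) in the 6 samples. Within that sum, GLUL passed the thresholds, lower in PVR (log2 fold change -1.11, adjusted p = 0.0125 from edgeR), RLBP1 had -0.89 (adjusted p = 0.0294) and GFAP had 1.39 (adjusted p = 0.143).

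MHC class I molecules show peptides from inside the cell to CD8 T cells. The immunoproteasome cuts the peptides, with PSMB8, PSMB9 and PSMB10 in place of the constitutive subunits PSMB5, PSMB6 and PSMB7. TAP1 and TAP2 form the transporter that moves peptides into the endoplasmic reticulum, TAPBP (tapasin) bridges the transporter and the class I heavy chain, and B2M is the light chain of class I. MHC class II molecules show peptides taken up from outside the cell to CD4 T cells, and CD74 (the invariant chain) guards their groove until the endosome. NLRC5 is the transactivator of class I genes and CIITA that of class II genes, and interferon gamma is a known inducer of both sets. In the retina, microglia are the resident cells best known for class II expression. In bulk tissue, fewer cells of a type and less RNA per cell cannot be told apart.

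One normal retina stood apart in these genes. Normal replicate 3 was the lowest of all 6 samples for 8 of the 10 genes, as it was for 18.5% of all genes tested. The 2 exceptions were TAPBP and CIITA. Among the normal samples alone, normal replicate 3 was lowest for 9 of the 10, CIITA included, against 37.7% of all genes tested. Against the mean of normal replicates 1 and 2, the median log2 ratio of normal replicate 3 was -1.90 over the 10 genes and -0.01 over all genes tested. Results are therefore also given without this sample, an emphasis chosen after its values were seen.

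Between PVR and normal retinas, none of the 10 genes passed the test. With edgeR's quasi-likelihood test, 0 of 10 passed an adjusted p of 0.05 together with a log2 fold change beyond 1, against 1.01% of all genes tested. On the adjusted p alone 0 of 10 passed, against 1.70% of all genes, and 0 of 10 had an unadjusted p under 0.05. DESeq2 and limma-voom also passed 0 of 10. Adjusted p ran from 0.547 to 0.998. The fitted log2 fold change was positive for 4 genes and negative for 6, with a median of -0.03 beside -0.01 over all genes. The samples of both groups overlapped for every one of the 10 genes, whereas the groups did not overlap for 28.0% of all genes. For 4 genes, B2M, TAP2, TAPBP and PSMB10, the 95% interval of the log2 fold change lay within 1 in either direction. For the other 6 the interval reached beyond 1 on at least one side, so a change of that size lay inside the interval in at least one direction.

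**Figure D1:**
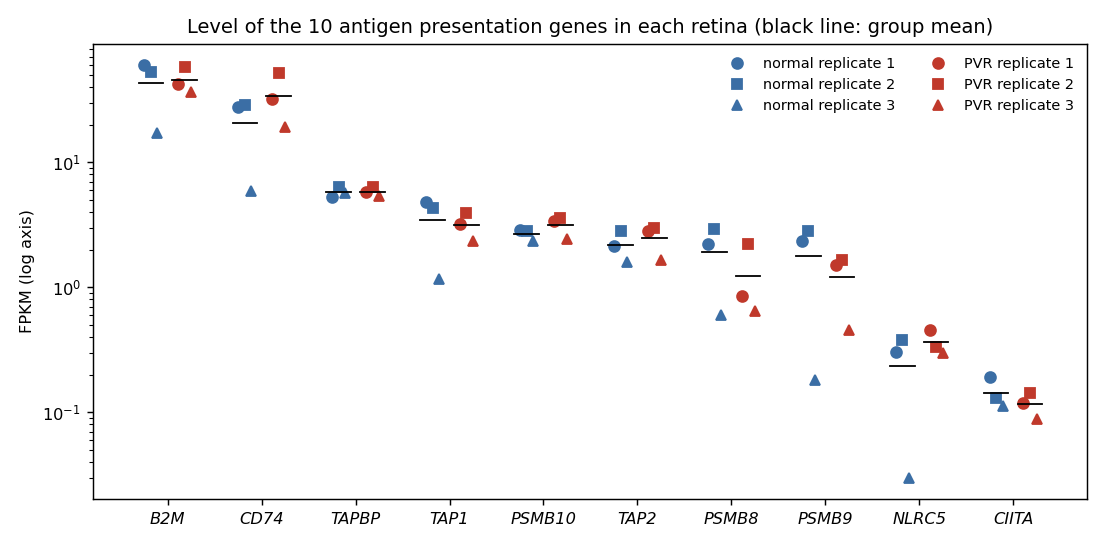
FPKM (reads scaled to gene length and to the total count, log axis) of the 10 genes in each normal (blue) and PVR (red) retina, with the group mean as a black line. B2M and CD74 stand highest and NLRC5 and CIITA lowest, and the triangle of normal replicate 3 lies far under the other normal samples for B2M, CD74, TAP1, PSMB8, PSMB9 and NLRC5.

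Per length, the 10 genes spanned a wide range of levels. In normal retina the order of mean FPKM was B2M, CD74, TAPBP, TAP1, PSMB10, TAP2, PSMB8, PSMB9, NLRC5 and CIITA, and the order of the means was the same in PVR. In the normal samples only TAPBP and TAP1 were neighbours whose values did not overlap. In the PVR samples 4 neighbouring pairs did not overlap, namely CD74 and TAPBP, TAPBP and TAP1, PSMB9 and NLRC5, and NLRC5 and CIITA.

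B2M, the class I light chain, had FPKM values of 60.2, 52.2 and 17.1 in normal retinas against 42.0, 58.1 and 36.7 in the PVR samples. The PVR values fell inside the range of the normal values. The log2 fold change was -0.00 (standard error 0.42, 95% interval -0.99 to 0.99, adjusted p = 0.998 from edgeR). RLA-A3, a class I heavy chain gene found by its symbol, had FPKM values of 33.8, 34.7 and 21.1 in normal retinas against 35.7, 38.9 and 26.2 in PVR. Class I heavy chains form a family of near-identical genes, so the count of RLA-A3 is uncertain. Its log2 fold change was 0.09 (standard error 0.22). In normal replicate 3, B2M was 3.41-fold lower than the mean of the other normal samples, whereas RLA-A3 was 1.68-fold lower.

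TAP1, a chain of the peptide transporter, had FPKM values of 4.85, 4.30 and 1.15 in normal retinas against 3.21, 3.96 and 2.36 in PVR. TAP2, its partner, had 2.15, 2.83 and 1.59 in normal retinas against 2.80, 2.97 and 1.65 in PVR. TAP1 was therefore spread over a 4.29-fold range of CPM among the normal samples and TAP2 over a 1.87-fold range. The ratio of TAP1 to TAP2 FPKM was 2.25, 1.52 and 0.727 in normal retinas, against 1.15, 1.33 and 1.43 in PVR. The partners did not move in step across the normal retinas, and the PVR ratios lay within the normal range. The log2 fold change was -0.20 for TAP1 (standard error 0.49, adjusted p = 0.836) and 0.10 for TAP2 (standard error 0.31, adjusted p = 0.876).

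TAPBP was the steadiest of the 10 genes. Its FPKM was 5.28, 6.32 and 5.70 in normal retinas against 5.75, 6.35 and 5.34 in PVR. Its highest value was 1.23 times its lowest in normal retinas against 1.16 times in PVR, beside medians of 1.31 and 1.30 over all genes. The log2 fold change was -0.06, with a 95% interval from -0.40 to 0.28.

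The inducible proteasome subunits differed in their spread over the samples. PSMB8 had 119, 165 and 33 counts in normal retinas against 37, 98 and 38 in PVR. PSMB9 had 75, 94 and 6 counts in normal retinas against 39, 44 and 16 in PVR. Both were low in normal replicate 3 and in PVR replicate 3, and PSMB8 was low in PVR replicate 1 as well. For both genes the groups overlapped. The log2 fold changes were -0.74 for PSMB8 (standard error 0.67, adjusted p = 0.547) and -0.67 for PSMB9 (standard error 0.88, adjusted p = 0.688). The interval of PSMB9 was the widest of the 10, from -2.73 to 1.40. PSMB10 had 150, 155 and 125 counts in normal retinas against 145, 154 and 140 in PVR. On the CPM scale its highest value was 1.27 times its lowest in normal retinas and 1.42 times in PVR. The medians over all genes were 1.31 and 1.30. The log2 fold change of PSMB10 was 0.15 (standard error 0.24). By RefSeq's gene order for mOryCun1.1, a newer assembly than that of the files, PSMB9, TAP1, PSMB8 and TAP2 stand next to each other in that order, with RLA-DMB before PSMB9, whereas PSMB10 lies elsewhere.

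Set against its constitutive counterpart within each library, every inducible subunit was scarce. PSMB8 stood at 3.32%, 4.79% and 1.02% of the FPKM of PSMB5 in normal retinas against at 1.58%, 4.50% and 1.01% in PVR. PSMB9 stood at 3.40%, 4.15% and 0.285% of PSMB6 in normal retinas against at 2.71%, 3.36% and 0.740% in PVR. PSMB10 stood at 4.63%, 4.19% and 4.38% of PSMB7 in normal retinas against at 6.83%, 7.46% and 4.14% in PVR. PVR replicates 1 and 2 were above all normal samples in the PSMB10 ratio and PVR replicate 3 was below them. The 3 inducible subunits together made 3.30% ± 1.36 (SD, n = 3) of the 3 constitutive subunits in normal retinas against 3.54% ± 1.58 (SD, n = 3) in PVR. The difference of the mean log2 ratio was 0.09 (two-sided exact permutation test, p = 0.8, where 0.1 is the smallest p that 3 samples against 3 allow). With single samples left out it ran from -0.31 without normal replicate 3 to 0.48 without PVR replicate 3, and it was -0.22 without PVR replicate 2 and 0.35 without normal replicate 2. PSMB5, PSMB6 and PSMB7 themselves were fitted lower in PVR, by -0.24, -0.35 and -0.30 on the log2 scale, and none passed the test (adjusted p = 0.297, 0.132 and 0.249 from edgeR).

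**Figure D2:**
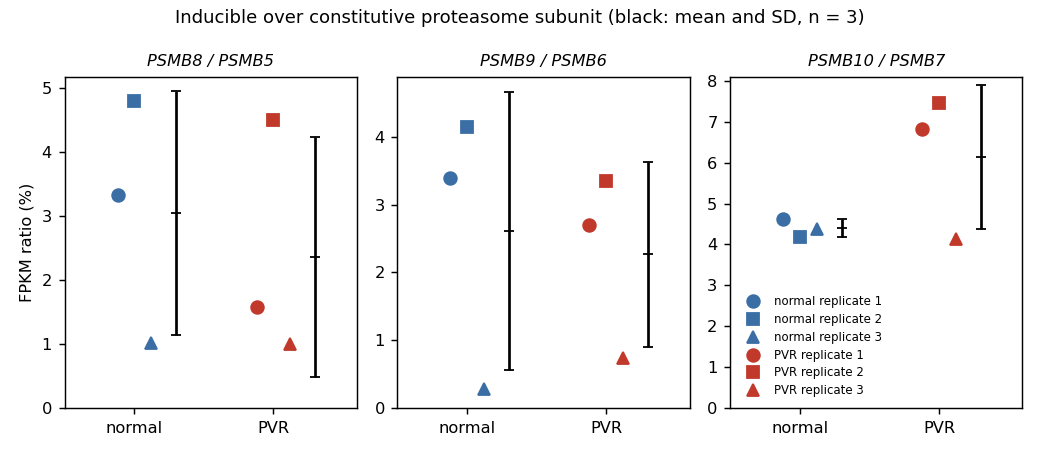
FPKM of each inducible proteasome subunit as a percentage of its constitutive counterpart in each retina, with the group mean and SD (n = 3) in black beside the points. PSMB9 over PSMB6 ran from 0.285% to 4.15% in the normal samples, whereas PSMB10 over PSMB7 kept between 4.19% and 4.63% there.

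NLRC5, the class I transactivator, had 89, 116 and 9 counts in normal retinas against 109, 82 and 97 in PVR. The PVR samples lay close together, with the highest 1.49 times the lowest on the CPM scale. In the normal samples the highest was 13.2 times the lowest, which was normal replicate 3. The log2 fold change was 0.53 (standard error 0.74, adjusted p = 0.704), and leaving out normal replicate 3 or normal replicate 2 gave 0.01 or 1.07. Limma-voom gave 1.16, also not past the test. CIITA, the class II transactivator, had 76, 54 and 46 counts in normal retinas against 39, 47 and 39 in PVR. Its log2 fold change was -0.38 (standard error 0.36, adjusted p = 0.563). On the CPM scale, CIITA was lowest of all 6 samples in PVR replicate 3, and lowest of the normal samples in normal replicate 3.

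CD74 had the largest positive log2 fold change of the 10 genes, 0.63, which did not pass the test (standard error 0.58, 95% interval -0.73 to 1.99, adjusted p = 0.556). Its FPKM was 27.6, 28.5 and 5.87 in normal retinas against 31.7, 51.4 and 19.0 in PVR. PVR replicates 1 and 2 were above all normal samples, and PVR replicate 3 was between normal replicate 3 and the others. Without normal replicate 3 the log2 fold change was 0.19 (adjusted p = 0.780), without PVR replicate 2 it was 0.22, and without normal replicate 2 it was 0.96. Among the class II chains themselves, RLA-DR-ALPHA had 977, 903 and 110 counts in normal retinas against 842, 1388 and 499 in PVR (log2 fold change 0.60, standard error 0.75). RLA-DRB1, the polymorphic beta chain, had 436, 428 and 69 counts in normal retinas against 196, 250 and 210 in PVR (log2 fold change -0.41, standard error 0.60). RLA-DR-ALPHA and RLA-DRB1 thus had fitted values of opposite sign, neither past the test. The effect of polymorphism on the count of RLA-DRB1 was not tested. RLA-DMA and RLA-DMB exchange peptides in the class II groove. On the CPM scale, both had every PVR value above every normal value. The groups did not overlap in CPM, in either direction, for 28.0% of all genes tested. In raw counts, RLA-DMB of PVR replicate 1 was under that of normal replicate 2. RLA-DMA had 57, 70 and 61 counts in normal retinas against 76, 108 and 97 in PVR. RLA-DMB had 70, 100 and 49 in normal retinas against 90, 175 and 123 in PVR. Neither passed: the log2 fold change was 0.69 for RLA-DMA (adjusted p = 0.217) and 0.94 for RLA-DMB (adjusted p = 0.223).

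The FPKM ratio of CD74 to B2M, which sets class II against class I within a library, was 0.458, 0.547 and 0.344 in normal retinas against 0.756, 0.885 and 0.517 in PVR. PVR replicates 1 and 2 were above all normal samples, and PVR replicate 3 was under normal replicate 2 (exact permutation test, two-sided, of the mean log2 ratio, p = 0.2). This ratio, like that of TAP1 to TAP2, was chosen after the values were seen.

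**Figure D3:**
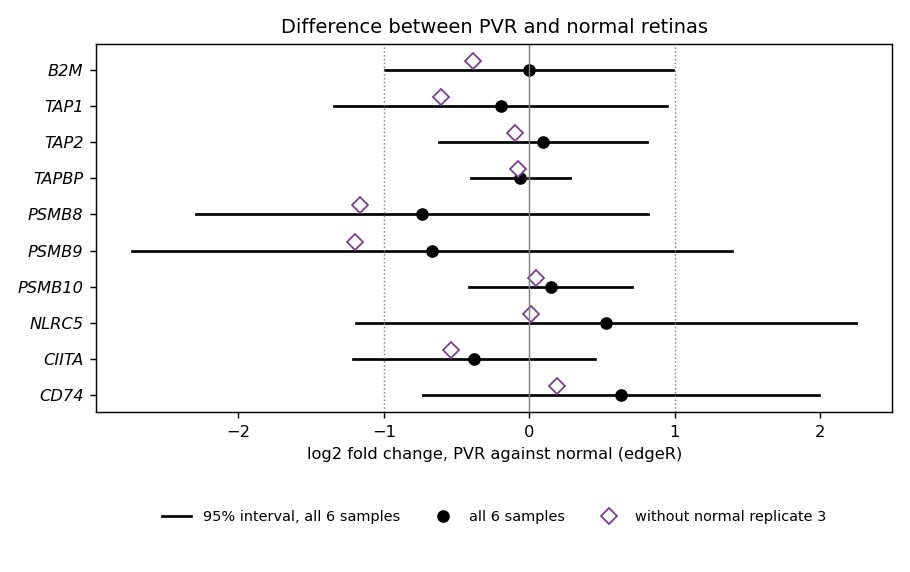
Log2 fold change of the 10 genes between PVR and normal retinas from edgeR, with all 6 samples (black, with the 95% interval) and without normal replicate 3 (open diamonds); dotted lines mark a log2 fold change of 1 in either direction. Every interval includes 0, and without normal replicate 3 the values moved towards lower expression in PVR, by most for PSMB9 and NLRC5.

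Without normal replicate 3, 0 of the 10 genes passed the thresholds, against 1.93% of all genes tested in that setting. The median log2 fold change was then -0.24. TAP1 had the smallest adjusted p over the 15 other settings that were tried, 0.178, in this comparison, with a log2 fold change of -0.61 (unadjusted p = 0.0316 from edgeR). PSMB8 had -1.17, PSMB9 had -1.20 and B2M had -0.38, with adjusted p of 0.249, 0.251 and 0.267. On the CPM scale, TAP1, PSMB8 and PSMB9 were lower in all PVR samples than in normal replicates 1 and 2, as were 22.9% of all genes tested. Within PVR, replicate 3 was the lowest of the 3 samples for 10 of 10 genes, against 38.6% of all genes, and PVR replicate 2 was the highest for 9 of 10, against 39.8%.

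**Figure D4:**
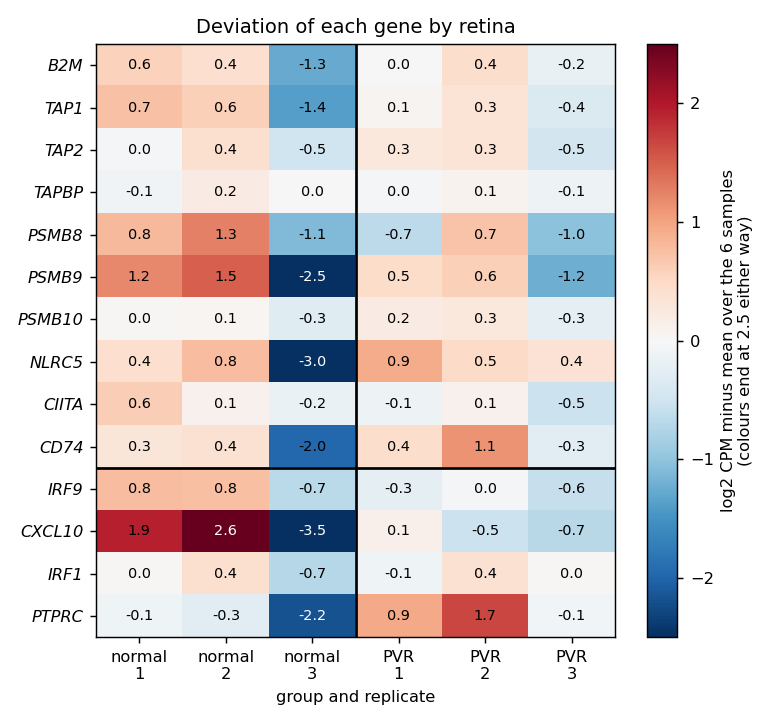
Log2 CPM of each gene in each retina minus its mean over the 6 samples, with the 10 genes above the line and 4 related genes, chosen after their values were seen, under it. Normal replicate 3 is lowest for 8 of the 10 genes, and IRF9 and CXCL10 are highest in normal replicates 1 and 2.

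Genes of the interferon route, a known inducer of this pathway, also set normal replicates 1 and 2 apart. These genes were picked out of their list after the values were seen. CXCL10, a chemokine induced by interferon, had 283, 465 and 7 counts in normal retinas against 69, 45 and 52 in PVR. CXCL9 had 84 and 141 counts in normal replicates 1 and 2, 0 in normal replicate 3, and 0, 6 and 4 in PVR. CXCL11 had 73, 87 and 0 in normal retinas against 0, 4 and 8 in PVR. IFNG itself had at most 4 counts in any sample. The part of this signal in the level of the 10 genes was not tested. Of the 25 genes of this list, 21 were matched and 18 tested, and 0 passed the thresholds in either direction, with 12 fitted higher and 6 lower and a median log2 fold change of 0.12. IDO1, an interferon-induced enzyme of tryptophan breakdown, had 13, 5 and 1 counts in normal retinas against 74, 132 and 53 in PVR (log2 fold change 3.88, standard error 0.80, adjusted p = 0.0638). IFNAR1, a chain of the type I interferon receptor, had 0.31 (adjusted p = 0.0841). The fitted values of this list thus had both signs.

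The rest of the pathway gave no gene past the thresholds. Among 11 tested genes of peptide loading and trimming, 0 passed, with a median log2 fold change of -0.06. ERAP1, the aminopeptidase that trims class I peptides, came nearest, with 1606, 1336 and 1381 counts in normal retinas against 578, 518 and 1069 in PVR. All PVR samples of ERAP1 were below the normal samples, at a log2 change of -0.94 (standard error 0.19, adjusted p = 0.0613). SEC61A1, of the translocation channel, had -0.15 (adjusted p = 0.282). Among 20 proteasome and activator genes 0 passed, with 18 fitted lower and a median of -0.13. The smallest p belonged to PSMB6 and to PSMA4, at -0.32 (adjusted p = 0.193). Among 10 genes of the transcription complex on MHC promoters and its cofactors 0 passed, with a median of 0.02. NFYC had -0.20 (adjusted p = 0.272) and RFXANK had -0.37 (adjusted p = 0.366).

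Of the class II enzymes and chaperones 8 were matched by symbol and tested, with a median of 0.26, and 0 passed. Besides RLA-DMA, CD82 had the smallest p, at 0.39 (adjusted p = 0.223). Of the 9 tested MHC molecules and their relatives 0 passed, with a median of 0.60. HFE, a class I relative in iron uptake, had a log2 fold change with a 95% interval of 0.26 to 1.74 (adjusted p = 0.142), and AZGP1 had 1.44 (adjusted p = 0.209). Of 7 tested genes of co-stimulation and checkpoint control 0 passed, with a median of 0.34. ICAM1, an adhesion molecule used in contact with T cells, had 74, 93 and 11 counts in normal retinas against 207, 210 and 299 in PVR, at a log2 change of 2.08 (standard error 0.64, adjusted p = 0.133). CD80, a co-stimulatory ligand, had 0.89 (adjusted p = 0.214).

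Markers of microglia and macrophages, the main class II cells considered here, all had positive fitted values. The 12 matched markers had a summed level of 42.6 to 90.3 CPM in normal retinas against 112 to 155 CPM in PVR. The median log2 fold change of the 12 was 0.90, with 12 of 12 above 0. For 10 of 12 the groups did not overlap in CPM, against 28.0% of all genes tested. Past the thresholds were 0 of 12, against 1.01% of all genes tested. P2RY12 and ITGAM had the smallest p, at 0.95 and 1.62 (adjusted p = 0.0602 and 0.0735 from edgeR). None was at 0 in a whole group. PTPRC, the pan-leukocyte antigen CD45, had 177, 163 and 44 counts in normal retinas against 314, 538 and 206 in PVR (log2 fold change 1.61, adjusted p = 0.190). The CD74 level per summed marker level was 0.473, 0.505 and 0.209 in normal retinas against 0.337, 0.484 and 0.253 in PVR (two-sided exact permutation test, p = 0.9). The lowest marker sum was that of normal replicate 3, the sample that was also lowest in CD74 and B2M. The part of these cells in the levels of the 10 genes was not tested.

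**Figure D5:**
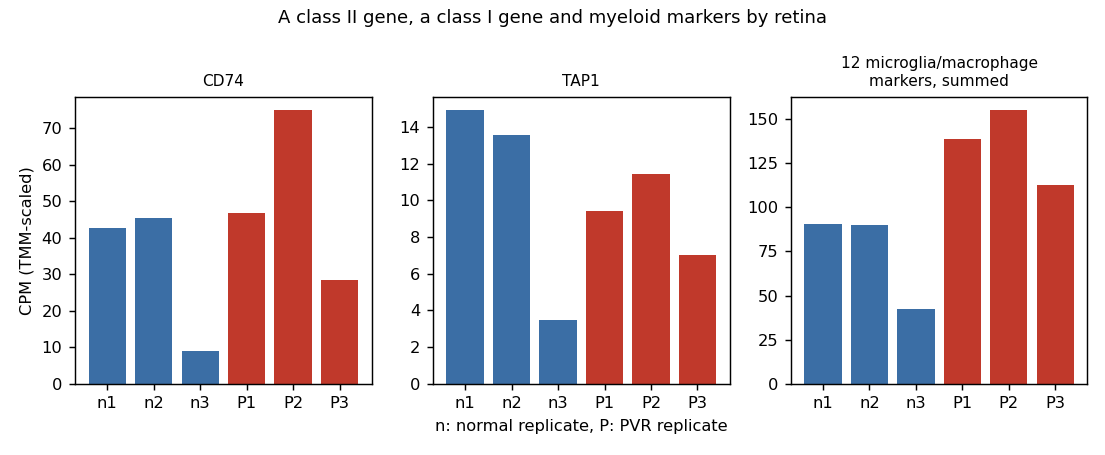
CPM of CD74, of TAP1 and of 12 summed microglia and macrophage markers in each retina (bars, 1 per sample; blue normal, red PVR). The marker sum was 112 CPM or more in every PVR sample and 90.3 CPM or less in every normal sample, whereas CD74 and TAP1 overlapped between the groups.

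Other immune cell markers were sparse. The 5 matched dendritic cell markers summed to 2.98 to 3.55 CPM in normal retinas against 4.45 to 5.53 CPM in PVR. The 7 matched T and NK cell markers summed to 0.751 to 3.13 CPM in normal retinas against 1.68 to 3.03 CPM in PVR. The 4 B cell markers summed to 0.125 to 1.21 CPM in normal retinas against 0.184 to 3.66 CPM in PVR. Neutrophil markers summed to 0.550 to 1.92 CPM in normal retinas against 8.27 to 18.4 CPM in PVR, and 3 of the 3 tested were past the thresholds, higher in PVR. Endothelial markers summed to 10.7 to 39.8 CPM in normal retinas against 3.64 to 4.33 CPM in PVR, highest in normal replicate 3, and 2 of 7, VWF and CDH5, were past the thresholds, lower in PVR. Oligodendrocyte markers, which mark myelinated tissue, summed to 189, 475 and 1080.0 CPM in the normal samples, also highest in normal replicate 3, and to 99.9 to 130 CPM in PVR. MAG and MOBP, 2 of those 5, were past the thresholds, lower in PVR. The part of any of these cells in the results was not tested. Lens markers were high in normal replicate 2 (22675 CPM for 6 genes, against at most 255 CPM in any other sample), and without that sample the median log2 fold change of the 10 genes was 0.11 and 0 passed.

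Pattern likeness was described by Pearson's r of log2 CPM over the 6 samples among 11693 genes, which share library scaling. For B2M the 5 most alike were SFXN3, TAP1, AP5M1, CHMP1B and KIF27, with r from 0.984 to 0.986. For CD74 they were RLA-DR-ALPHA, SORD, CTSS, ZNF512B and SLC7A6OS, with r from 0.987 to 0.994. CTSS is the protease that cuts the invariant chain. B2M and CD74 had an r of 0.927 with each other, which was 0.598 without normal replicate 3, and B2M and TAP1 had 0.986 and 0.956. B2M and NLRC5 had 0.873 with all samples and -0.11 without normal replicate 3, so that likeness rested on a single sample.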

How the data were processed

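Polyadenylated RNA from 3 normal and 3 PVR rabbit retinas was sequenced. Per the study's methods and the submitters' processing notes, reads were trimmed with fastp, aligned to OryCun2.0 with HISAT2 and counted with HTSeq. The deposited counts are raw read counts per gene, and the authors also deposited FPKM values made from the same counts, with the total count as depth. The strand setting and the annotation release are not given in the sources used here. Columns were matched to samples by name.

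All genes were fitted in R 4.3.3 with edgeR 4.0.16 (default filter, TMM factors, quasi-likelihood test, condition as the single term, Benjamini-Hochberg adjustment over 18697 genes). CPM values use TMM-scaled library sizes. Intervals of log2 fold changes use the t quantile of the fit's degrees of freedom, and each standard error is the fold change divided by the root of F. Ratios were tested with an exact permutation test in SciPy 1.17.1. Alternatives were DESeq2 1.42.0, limma 3.58.1 (voom, and log2(FPKM + 1) or log2(FPKM + 0.1)), other factors, other filters, a replicate block, and leaving out 1 sample at a time. The fits were tested on simulated counts. Tables and figures were made with Python 3.11.15, pandas 2.3.3 and matplotlib 3.10.9.

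The genes and lists were chosen with earlier results of these data known. The text names the 10 genes, the constitutive subunits, and in each pathway list the genes past the thresholds and the 2 with the smallest p; others were named after their values were seen. Unmatched symbols were looked up in RefSeq's annotation of mOryCun1.1, and 6 listed genes (STAT2, C1QA, C1QB, CD3D, CD3G and PDE6B) were matched by RefSeq identifier. No interval here rests on read counting alone. Sequences were not analysed here. Some related genes are not reported here.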

Additional observations from a re-analysis of the deposited data

How the results depend on the processing

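Over 15 alternative settings, 0 of the 10 genes passed an adjusted p of 0.05 in any of 148 fitted values, and the lowest adjusted p was 0.178, for TAP1 without normal replicate 3. PSMB9 and NLRC5 were not tested where at least 10 counts in every sample were asked for. Of the 148 fold changes, 124 kept their sign and 24 did not, all of them small. B2M changed sign to 0.0012 with DESeq2, 0.0056 with RLE factors, 0.033 with upper-quartile factors, 0.0088 with the stricter filter, 0.17 with limma-voom, and 0.23 and 0.25 on the log2(FPKM + 1) and log2(FPKM + 0.1) scales. TAP1 did so to 0.022 with limma-voom, and to 0.023 and 0.091 on those FPKM scales, where TAPBP had 0.011 and 0.013. With single samples left out, the range was -0.38 to 0.31 for B2M, -0.61 to 0.13 for TAP1, -0.10 to 0.35 for TAP2, and -0.12 to 0.035 for TAPBP. The others kept their sign, from -1.44 (without PVR replicate 2) to -0.26 (without normal replicate 2) for PSMB8, -1.20 (without normal replicate 3) to -0.15 (without normal replicate 2) for PSMB9, 0.047 (without normal replicate 3) to 0.29 (without PVR replicate 3) for PSMB10, 0.01 (without normal replicate 3) to 1.07 (without normal replicate 2) for NLRC5, -0.54 (without normal replicate 3) to -0.12 (without normal replicate 1) for CIITA and 0.19 (without normal replicate 3) to 0.96 (without normal replicate 2) for CD74. The cause was not tested. The replicate block gave 0.17 for B2M, 0.017 for TAP1 and 0.83 for CD74 (unadjusted p = 0.0287, adjusted p = 0.220 from edgeR), and it passed 0 of 10. Same-numbered samples deviated together with correlations over all genes of only -0.01, 0.06 and 0.02, so the numbers were not taken as pairs. Those correlations do not settle the matter for the 10 genes. Replicate 3 was the lowest normal sample for 9 of them and the lowest PVR sample for 10. With the block the standard error fell from 0.58 to 0.29 for CD74 and from 0.67 to 0.40 for PSMB8. It fell too for B2M (0.42 to 0.31), TAP1 (0.49 to 0.34), TAP2 (0.31 to 0.20) and PSMB9 (0.88 to 0.55). The fall was slight for PSMB10 (0.239 to 0.234) and NLRC5 (0.74 to 0.72). Only for TAPBP (0.14 to 0.15) and CIITA (0.36 to 0.37) did the standard error rise. Over all genes, 129 were past the thresholds higher in PVR and 59 lower, beside 56 and 26 with the block, 564 and 243 with DESeq2, 92 and 37 with limma-voom, 98 and 31 with the stricter filter, 68 and 19 with log2(FPKM + 1), 16 and 6 without PVR replicate 1, 211 and 159 without normal replicate 3, and 373 and 63 without PVR replicate 3. PSMB8, PSMB9, PSMB10, NLRC5 and CIITA had under 200 counts in every sample.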

Other observations

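T and B cell transcripts were missing from the third sample of both groups. CD3E had 6, 18 and 0 counts in normal retinas against 9, 19 and 0 in PVR. CD3D had 1, 7 and 0 in normal retinas against 4, 10 and 0 in PVR, and CD3G had 1, 13 and 0 in normal retinas against 5, 2 and 0 in PVR. MS4A1, the B cell antigen CD20, had 7, 6 and 0 counts in normal retinas against 16, 27 and 0 in PVR, and CD79B had 3, 10 and 0 in normal retinas against 14, 25 and 0 in PVR. The replicate numbers do not link the samples across groups as far as the labels state. These genes were noticed after their values were seen. Neutrophil-type transcripts were present in the third sample of both groups, but those tested were lowest there within each group. S100A8, S100A9 and S100A12 encode calcium-binding proteins abundant in neutrophils. S100A8 had 24, 5 and 2 counts in normal retinas against 208, 209 and 136 in PVR. S100A9 had 32, 36 and 13 in normal retinas against 186, 257 and 130 in PVR. S100A12 had 15, 19 and 6 in normal retinas against 106, 145 and 91 in PVR. All were past the thresholds, higher in PVR by log2 fold changes of 4.27, 2.96 and 3.21 (adjusted p = 0.0486, 0.0416 and 0.0342 from edgeR). CSF3R had 2, 0 and 1 counts in normal retinas against 6, 6 and 2 in PVR and was not tested.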
